A study of Mus with 8 samples.

Results

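The genes described here encode 10 transporters that move bile acids and other organic anions across the hepatocyte membrane, measured by RNA-seq in mouse liver. They were chosen by name and split by direction into 5 uptake carriers (Slc10a1, Slco1a1, Slco1a4, Slco1b2 and Slco2b1) and 5 export pumps (Abcb11, Abcb4, Abcc2, Abcc3 and Abcc4). All 10 were found among the 54532 genes listed, and all 10 passed the filter on low counts that left 11729 genes to test. In the DSSHA group, mice received dextran sulfate sodium (DSS), alcohol and a high-fat diet (n = 4 libraries, numbered 35, 45, 65 and 71). In the DSS group, mice received dextran sulfate sodium (n = 4 libraries, numbered 15, 48, 49 and 50). DSS injures the colonic epithelium. It was given at 2.5% and stopped on day 6 in every mouse, before feed and alcohol were changed. Both groups thus received DSS, no measure of the colon was used, and no liver without DSS was analysed here. The labels do not state the feed of the DSS group, and the design text can be read as a purified high-fat feed for it. Every value of DSSHA over DSS may therefore stand for alcohol with a high-fat diet or for alcohol with another type of high-fat feed, and alcohol and feed cannot be told apart. The labels give no strain, age or sex. Libraries are numbered singly and the labels do not tie each number to its own mouse. A p-value here therefore sets the group difference against the spread among these libraries, which may not be a spread among mice.

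Bile acids circulate between liver and gut. Hepatocytes take them up from sinusoidal blood through the sodium-dependent carrier NTCP, encoded by Slc10a1, and through sodium-independent organic anion transporting polypeptides, encoded by Slco genes. The bile salt export pump, encoded by Abcb11, drives them across the canalicular membrane into bile, where phospholipid moved by the Abcb4 product shields the bile ducts from their detergent action. Pumps of the Abcc family carry conjugated anions into bile (Abcc2) or back into blood (Abcc3 and Abcc4). In mice Slco1a1 is expressed more in male than in female liver under growth hormone control.

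Total counts were 12502300 to 16967839 per library. Mitochondrially encoded transcripts took 30.2 to 73.0% of counts in DSSHA libraries and 55.8 to 79.1% in DSS libraries (exact two-sided permutation p = 0.143, n = 4 each), leaving 2722757 to 10947612 counts for nuclear genes. Library DSSHA 35 stood apart, listing 784 genes at 1 to 9 counts where the other 7 listed 4319 to 4987, and results that rest on it are given with and without it. Xist had 0 counts in every library and the Y-linked Ddx3y had 245 to 712, a pattern of male tissue in all 8. The 14 hepatocyte markers, albumin among them, summed to 37700 to 52400 CPM (counts scaled to library size, TMM-normalized) in DSSHA livers and 51300 to 81100 CPM in DSS livers. Albumin was the largest single part of the gap, at 14800 to 23400 CPM in DSSHA livers and 30200 to 50300 CPM in DSS livers. The other markers together overlapped between groups, but their sum includes Fga and Fgb, which are also acute-phase genes. These 2 were higher on average in DSSHA livers (6063 and 6728 CPM) than in DSS livers (2814 and 3096 CPM), which offsets lower values of other markers in the sum. In whole tissue, fewer cells of a type and less RNA per cell cannot be told apart.

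Of the 10 transporter genes, Slco1a1 alone passed the test across all genes, and it fell (quasi-likelihood F test of edgeR, with a Benjamini-Hochberg adjusted p under 0.05). Across all 11729 tested genes 1.26% passed in either direction: 0.588% were higher and 0.674% were lower in the DSSHA group. An unadjusted p under 0.05 was reached by 11.7% of all tested genes, the share against which each count at that threshold is to be read. By role, 1 of 5 uptake carriers fell, and none of the 5 export pumps passed. All 10 fitted log2 fold changes (DSSHA over DSS) were below 0, against 50.5% of all tested genes. The median was -0.37 for the uptake carriers, -0.40 for the 3 canalicular exporters and -0.56 for the 2 basolateral ones, against -0.01 over all tested genes. The hepatocyte markers showed a similar shift, with 11 of 14 below 0 and a median of -0.34. Among the 12 markers outside the acute-phase list, 11 were below 0, with a median of -0.43. Of the 14 markers edgeR called 0 (5 at an unadjusted p under 0.05), DESeq2 4 and limma-voom 0. The part of these markers in the transporter values was not tested.

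**Figure D1:**
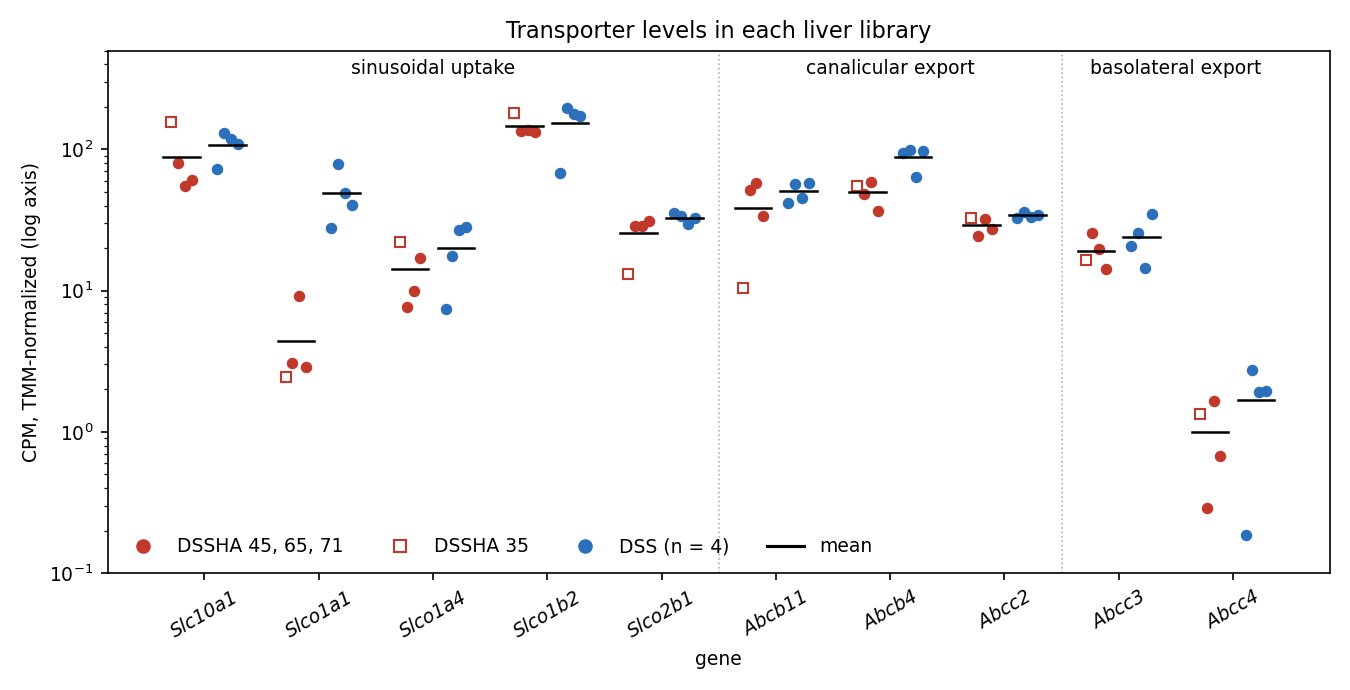
TMM-normalized CPM of each transporter gene (log axis) in the 4 DSSHA libraries, left of the 4 DSS libraries; bars are group means and open squares mark DSSHA 35. Slco1a1 separates the groups by the widest margin, with 2.46 to 9.17 CPM in DSSHA livers and 27.8 to 78.3 CPM in DSS livers.

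Slco1a1 (ENSMUSG00000041698, chromosome 6, 141907282 to 141946962, GRCm38, minus strand) encodes a sinusoidal carrier of bile acids, steroid conjugates and other organic anions. It had 2.46, 3.09, 9.17 and 2.86 CPM in DSSHA libraries 35, 45, 65 and 71 (44, 75, 83 and 72 counts), against 27.8, 78.3, 49.1 and 40.4 CPM in DSS libraries 15, 48, 49 and 50 (446, 1117, 410 and 271 counts). The groups did not overlap, and the highest DSSHA library, 65, lay below the lowest DSS library. Slco1a1 averaged 4.39 ± 3.19 CPM in DSSHA livers and 48.9 ± 21.5 CPM in DSS livers (SD, n = 4 each), a log2 fold change of -3.52 ± 0.48 (SE) with a 95% interval from -4.58 to -2.47, or 11.5-fold lower (edgeR adjusted p = 0.00514). Only 0.145% of tested genes had a lower fold change. The call held in all 8 fits that left out 1 library (log2 fold change -4.12 without DSSHA 65 to -3.19 without DSS 48, highest edgeR adjusted p = 0.0296). It was -3.35 without DSSHA 35 and -3.15 with the mitochondrial share as a covariate (edgeR adjusted p = 0.0113 and 0.025).

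Slc10a1 (ENSMUSG00000021135, chromosome 12, 80953183 to 80968705) encodes NTCP, the sodium-coupled carrier of conjugated bile acids. It had 157, 80.2, 55.0 and 60.8 CPM in DSSHA libraries 35, 45, 65 and 71, against 72.3, 132, 119 and 110.1 CPM in DSS libraries 15, 48, 49 and 50. The groups overlapped at both ends: DSSHA 35 was the highest of the 8 libraries and DSS 15 was below 2 of the DSSHA libraries. The log2 fold change was -0.29 ± 0.34 (95% interval -1.04 to 0.45, edgeR adjusted p = 0.813), and -0.73 ± 0.25 without DSSHA 35 (edgeR adjusted p = 0.156).

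Slco1b2 (ENSMUSG00000030236, chromosome 6, 141629518 to 141686646) encodes a liver-specific carrier of bile acids, bilirubin conjugates and drugs. It had 182.5, 135, 138 and 133 CPM in DSSHA libraries 35, 45, 65 and 71, against 67.7, 197, 178 and 173 CPM in DSS libraries 15, 48, 49 and 50. All 4 DSSHA libraries lay inside the range of the DSS libraries, of which DSS 15 was far the lowest. Its fold change was the smallest of the 10, at -0.07 ± 0.31 on the log2 scale (95% interval -0.74 to 0.61, edgeR adjusted p = 0.963). Without DSSHA 35 it was -0.19 ± 0.30 (edgeR adjusted p = 0.845).

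Slco1a4 (ENSMUSG00000030237, chromosome 6, 141805440 to 141856199), whose product carries bile acids and cardiac glycosides such as digoxin, had 22.2, 7.70, 9.94 and 17.1 CPM in DSSHA libraries 35, 45, 65 and 71, against 7.42, 17.5, 26.8 and 28.2 CPM in DSS libraries 15, 48, 49 and 50. The ranges overlapped almost fully (log2 fold change -0.48 ± 0.43, 95% interval -1.43 to 0.47, edgeR adjusted p = 0.754). Without DSSHA 35 the Slco1a4 value was -0.77 ± 0.45 (edgeR adjusted p = 0.500). Slco2b1 (ENSMUSG00000030737, chromosome 7, 99657804 to 99711340), a carrier of sulfated steroids, had 13.04 CPM in DSSHA 35 and 28.7 to 31.1 CPM in DSSHA 45, 65 and 71, against 29.7 to 35.7 CPM in the DSS libraries. Its log2 fold change was -0.37 ± 0.27 (95% interval -0.96 to 0.21, edgeR adjusted p = 0.672), or -0.16 without DSSHA 35. The lower bounds of these 4 uptake carriers, -1.43 to -0.74, were all above the upper bound of the Slco1a1 interval, -2.47.

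Levels of different genes were compared per unit of length, as the deposited FPKM. Summed over the 5 uptake carriers, FPKM was 75.5 ± 24.0 in DSSHA livers and 96.3 ± 26.7 in DSS livers (SD, n = 4 each), with overlapping ranges of 60.6 to 111 and 58.5 to 121. The overlap rests on DSSHA 35 (111) and DSS 15 (58.5). The other DSSHA libraries had 60.6 to 69.0 and the other DSS libraries 99.6 to 121. Slc10a1 and Slco1b2 were the highest pair in every library: Slc10a1 held 49.7% ± 9.63 of the summed uptake FPKM in DSSHA livers and 50.7% ± 3.38 in DSS livers, and Slco1b2 held 39.9% ± 5.84 and 30.8% ± 5.05 in the same order of groups. Slco1a1 held 1.23% ± 1.09 in DSSHA livers (range 0.407 to 2.84%) and 9.26% ± 2.0 in DSS livers (range 7.44 to 12.1%). Within a library, Slco1a1 FPKM was 1.26, 2.14, 6.21 and 2.01% of Slco1b2 FPKM in DSSHA 35, 45, 65 and 71, against 38.4, 37.1, 25.8 and 21.8% in DSS 15, 48, 49 and 50. The ratio of Slco1a1 to Slco1a4 FPKM was 0.135, 0.488, 1.12 and 0.203 in DSSHA 35, 45, 65 and 71, against 4.56, 5.43, 2.23 and 1.74 in DSS 15, 48, 49 and 50. Slco1a1 thus ranked 8 or 9 of the 10 transporter genes in each DSSHA library and 3 to 6 in each DSS library. These ratios are descriptions of single libraries and were not tested.

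**Figure D2:**
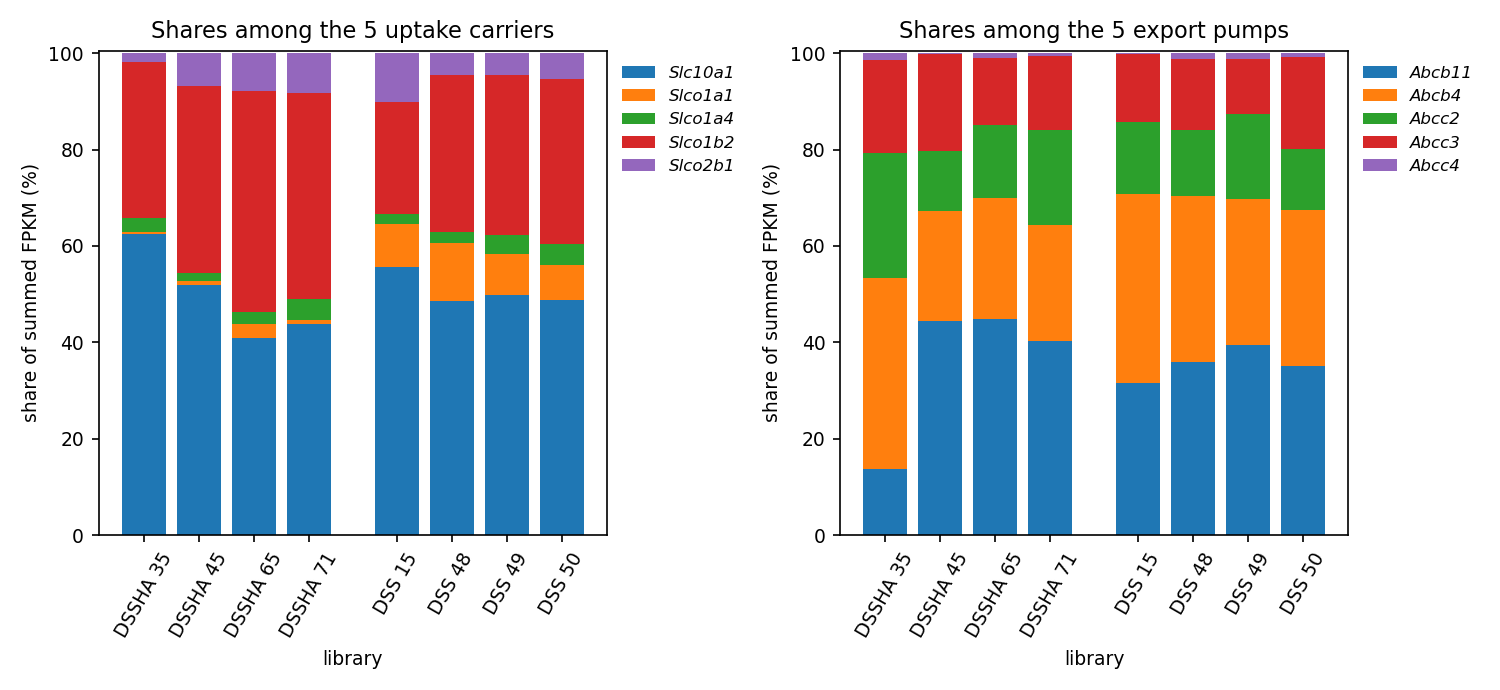
Share of the summed FPKM (%) held by each gene among the 5 uptake carriers (left panel) and the 5 export genes (right panel) in each library, DSSHA libraries left of DSS libraries. The Slco1a1 share was 0.407 to 2.84% in DSSHA livers and 7.44 to 12.1% in DSS livers, and the Abcb11 share was 13.7% in DSSHA 35 and 31.5 to 44.9% in the other 7 libraries.

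The uptake genes Slco1b2, Slco1a4 and Slco1a1 lie in that order in one cluster on chromosome 6. Between 250000 bases before Slco1b2 and the same distance after Slco1a1, 13 genes are listed. Slco1c1 and Gm5724 had 0 counts and Gm6614 had 2 counts over all 8 libraries. Slco1a5 and Slco1a6, related carriers of the same family, also had 0 counts in every library. Gm30784, a noncoding RNA between Slco1a4 and Slco1a1, had 349 counts in all and stood at 0.82 on the log2 scale (edgeR adjusted p = 0.638). Of the cluster's genes tested, Slco1a1 alone passed, and the 95% intervals of Slco1b2 and Slco1a4 included 0. Slco1a genes are close relatives, and how the counting treated reads shared between them is not stated in the labels or the table, so the split between Slco1a1 and Slco1a4 is uncertain to that extent.

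The 3 canalicular exporters were each lower on average in the DSSHA group, and none passed. Abcb4 (ENSMUSG00000042476, chromosome 5, 8893717 to 8959231) encodes the flippase that supplies phosphatidylcholine to bile. It had 55.1, 48.1, 59.1 and 36.8 CPM in DSSHA libraries 35, 45, 65 and 71, against 94.9, 99.4, 63.4 and 97.9 CPM in DSS libraries 15, 48, 49 and 50. The groups did not overlap, with DSS 49 set apart from the other DSS libraries and close to DSSHA 65. Abcb4 averaged 49.8 ± 9.77 CPM in DSSHA livers and 88.9 ± 17.1 CPM in DSS livers (SD, n = 4 each), a log2 fold change of -0.84 ± 0.23 (95% interval -1.34 to -0.34, edgeR unadjusted p = 0.00365, adjusted p = 0.129). The authors' deposited table gives Abcb4 a log2 fold change of -0.84 with an adjusted p of 0.0492, just inside 0.05. That table puts 2.08% of 20694 genes inside it, and 3.38% of the 11702 genes also tested with edgeR. A DESeq2 rerun on the same counts nearly repeated the deposited value (adjusted p = 0.049), so it is not a separate result. Limma-voom with sample weights also put Abcb4 inside 0.05 (adjusted p = 0.0274), in a fit that called 682 of 11729 genes, whereas limma-voom without weights did not (0.142). With the mitochondrial share as a covariate Abcb4 stood at -0.71 (edgeR adjusted p = 0.417). In the fits that left out 1 library its edgeR adjusted p was 0.0637 to 0.392.

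Abcc2 (ENSMUSG00000025194, chromosome 19, 43782192 to 43840740), which pumps bilirubin glucuronides and glutathione conjugates into bile, varied least of the 10 within each group, with a coefficient of variation of 14.1% in DSSHA livers and 4.39% in DSS livers. It had 32.69, 24.2, 32.25 and 27.1 CPM in DSSHA libraries 35, 45, 65 and 71, against 32.73, 36.1, 33.3 and 34.6 CPM in DSS libraries 15, 48, 49 and 50. DSSHA 35 and DSS 15 were almost level, so the groups only just failed to overlap, and the log2 fold change was -0.23 ± 0.19 (95% interval -0.64 to 0.18, edgeR adjusted p = 0.713). In all, 3 of 10 transporter genes (Slco1a1, Abcb4 and Abcc2) had no overlap between groups, against 8.77% of all tested genes. Abcb11 (ENSMUSG00000027048, chromosome 2, 69238282 to 69342616), the bile salt export pump, had 10.4, 51.6, 58.0 and 33.5 CPM in DSSHA libraries 35, 45, 65 and 71, against 41.7, 56.8, 45.4 and 58.2 CPM in DSS libraries 15, 48, 49 and 50. DSSHA 35 was far below every other library, while DSSHA 45 and 65 lay within the DSS range. The log2 fold change was -0.40 ± 0.41 (95% interval -1.31 to 0.51, edgeR adjusted p = 0.787) and -0.08 ± 0.23 without DSSHA 35.

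The 2 basolateral pumps overlapped between groups. Abcc3 (ENSMUSG00000020865, chromosome 11, 94343295 to 94392997), which returns glucuronides to blood, had 16.4, 25.7, 19.9 and 14.2 CPM in DSSHA libraries 35, 45, 65 and 71, against 20.8, 25.6, 14.5 and 34.9 CPM in DSS libraries 15, 48, 49 and 50 (log2 fold change -0.33 ± 0.29, 95% interval -0.97 to 0.32, edgeR adjusted p = 0.753). Abcc4 (ENSMUSG00000032849, chromosome 14, 118482692 to 118706219), a pump for sulfated bile acids and cyclic nucleotides, was the scarcest of the 10 in every library. It had 24, 7, 15 and 17 counts in DSSHA libraries 35, 45, 65 and 71, against 3, 39, 16 and 13 counts in DSS libraries 15, 48, 49 and 50. At this depth its 95% interval ran from -2.60 to 1.02 on the log2 scale. Of the 5 export genes edgeR called 0, with 1 at an unadjusted p under 0.05; DESeq2 called 1, limma-voom 0 and limma-voom with sample weights 1, in each case Abcb4.

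**Figure D3:**
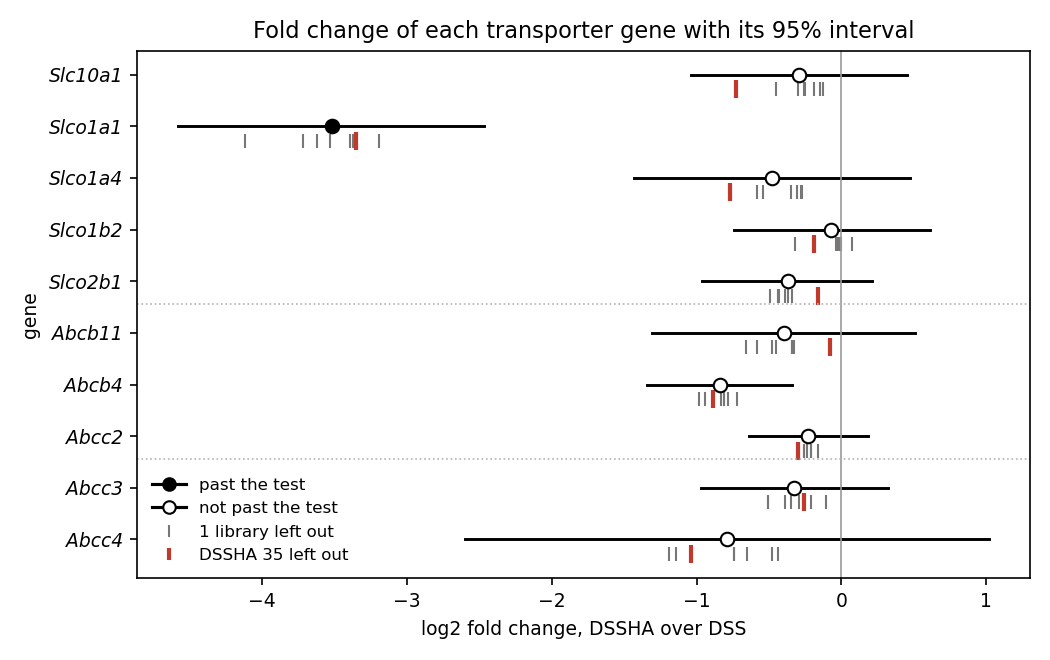
Fitted log2 fold change (DSSHA over DSS) of each transporter gene with its 95% interval; filled points passed the test, and ticks under each point are the values with 1 library left out, red for DSSHA 35. The Slco1a1 interval, -4.58 to -2.47, lies apart from those of the 9 other genes except Abcc4, whose lower bound is -2.60.

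DSSHA 35 was high for some of these genes and low for others. Among the DSSHA libraries it was the highest for Slc10a1, Slco1a4, Slco1b2 and Abcc2 and the lowest for Slco1a1, Slco2b1 and Abcb11. Abcb11 FPKM was 0.0283 of Slc10a1 FPKM in DSSHA 35, against 0.236 to 0.450 in the other 3 DSSHA libraries and 0.163 to 0.247 in the DSS libraries. Without DSSHA 35 the median log2 fold change of the uptake carriers was -0.73 and that of the canalicular exporters -0.30. In simulated data at these sample numbers the test recovered 7.81% of genes changed 2-fold, drawn at random from all tested genes. That rate is not specific to the transporters. A change of that size in a transporter could be missed, more easily where its SE is wide.

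Other carriers and pumps of the liver did not pass either. Of 13 tested uptake carriers outside the 10, edgeR called 0 (4 at an unadjusted p under 0.05; DESeq2 1, limma-voom 0), with a median log2 fold change of -0.43. Slc22a7, an organic anion carrier, averaged 2.42 ± 1.36 CPM in DSSHA livers and 8.43 ± 2.99 CPM in DSS livers (log2 fold change -1.82 ± 0.46, edgeR adjusted p = 0.0981; DESeq2 adjusted p = 0.0106). Slc16a1, a monocarboxylate carrier, stood at -0.79 ± 0.30 (edgeR adjusted p = 0.303). Slc10a2, the apical sodium-dependent bile acid carrier of cholangiocytes and ileum, averaged 5.44 ± 0.984 CPM in DSSHA livers and 2.52 ± 1.44 CPM in DSS livers (log2 fold change 1.10 ± 0.42, edgeR adjusted p = 0.300). Of 9 other tested export genes edgeR also called 0 (1 at an unadjusted p under 0.05; DESeq2 1, limma-voom 0; median -0.15). Closest to the threshold was Tmem30a, a partner subunit of the canalicular lipid flippase encoded by Atp8b1, at -0.94 ± 0.20 (edgeR adjusted p = 0.0518); it passed without DSSHA 35 (0.034) or DSS 15 (0.046). The cholesterol exporters Abcg5 and Abcg8 stood at -0.77 and -0.71 (edgeR adjusted p = 0.494 and 0.602), and Atp8b1 itself at 0.72 ± 0.46 (0.625). Slc51a and Slc51b, the basolateral bile acid exporter that appears in cholestatic liver, had at most 4 and 11 counts in any library and were not tested.

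Enzymes and regulators of the bile acid pathway gave the same count of 0 in edgeR. Of 14 tested synthesis and conjugation enzymes 4 had an unadjusted p under 0.05 (DESeq2 0, limma-voom 0), with a median of -0.40. Cyp7a1, the rate-limiting enzyme, averaged 3.79 CPM in DSSHA livers and 6.57 CPM in DSS livers (edgeR adjusted p = 0.809), Cyp2c70, which makes muricholic acid in mice, stood at -0.96 ± 0.33 (edgeR adjusted p = 0.254) and Slc27a5, the bile acid CoA ligase, at -0.76 ± 0.23 (0.176). Cyp27a1 and Cyp7b1, enzymes of the alternative synthesis pathway, stood at -0.75 ± 0.26 and -1.36 ± 0.54 (edgeR adjusted p = 0.257 and 0.340). Of 21 tested regulators 5 had an unadjusted p under 0.05 (DESeq2 2, limma-voom 0), with a median of -0.15. Nr1h4, which encodes the bile acid receptor FXR that activates Abcb11, averaged 67.8 CPM in DSSHA livers and 47.96 CPM in DSS livers (edgeR adjusted p = 0.434). Ahr, the aryl hydrocarbon receptor gene, stood at 1.34 ± 0.31 (edgeR adjusted p = 0.0653) and Klb, the FGF coreceptor through which gut FGF15 signals, at -1.74 ± 0.40 (0.068); both passed without DSSHA 35 (0.010 and 0.0461), and Klb also without DSS 15 (0.0188). Cebpa, a hepatocyte transcription factor gene, and Nr1i2, which encodes the xenobiotic receptor PXR, stood at -0.92 ± 0.28 and -0.61 ± 0.23 (edgeR adjusted p = 0.171 and 0.297). Of 13 membrane scaffold and trafficking genes edgeR called 0 (1 at an unadjusted p under 0.05; DESeq2 0, limma-voom 0; median -0.01). The 4 with the smallest p were Msn, at 0.66 ± 0.29 (edgeR adjusted p = 0.403), and, all below 0, Slc9a3r2, Rdx and Pdzk1, at -0.55 ± 0.32, -0.66 ± 0.40 and -0.50 ± 0.37 (0.574, 0.598 and 0.687). Msn and Rdx encode moesin and radixin, which link membrane proteins to actin, and Pdzk1 a scaffold for Slco1a1 protein at the membrane.

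**Figure D4:**
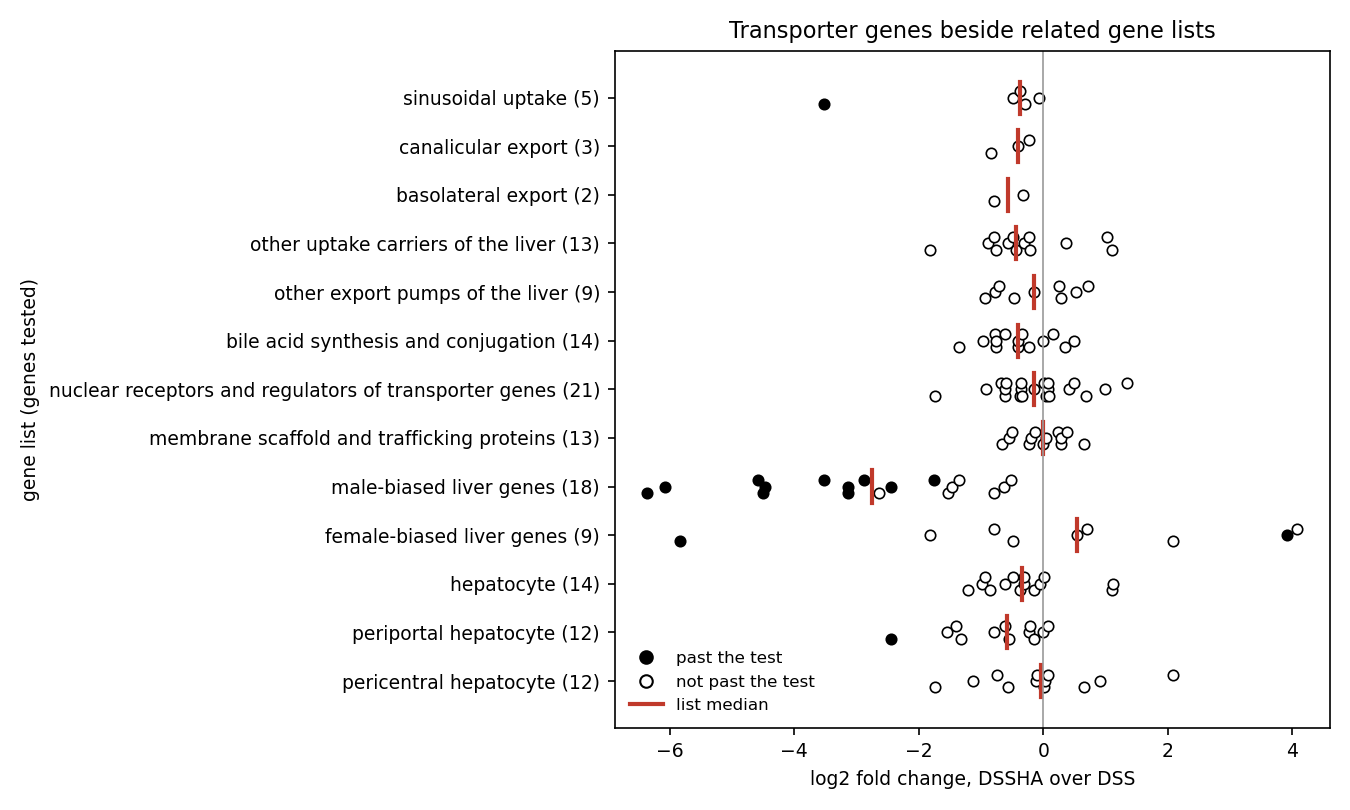
Log2 fold change (DSSHA over DSS) of every tested gene in the transporter groups and 10 related lists; filled points passed the test and red bars are list medians. The uptake, canalicular and basolateral groups have medians of -0.37, -0.40 and -0.56, and the male-biased list, which includes Slco1a1, has a median of -2.75.

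Genes expressed mainly in male liver fell alongside Slco1a1. Of 17 other tested male-biased genes 10 fell and none rose, with a median log2 fold change of -2.64; earlier results of these data were known when the list was written, so its direction is no independent evidence. Mup21, Mup20 and Mup3, which encode major urinary proteins, fell, with log2 fold changes of -6.08, -4.46 and -3.13, and so did Selenbp2, a selenium-binding protein gene, at -4.58 (edgeR adjusted p = 3.4e-05, 0.00179, 0.00183 and 0.00221). Many Mup genes are near-identical, and how reads shared among them were counted is not stated, so single Mup counts are uncertain to that extent. Genes expressed more in female liver, which in mice include Slco1a4, gave no common direction: of 19 listed 9 could be tested, of which 1 rose (Cyp2b9), 1 fell (Cyp2a4) and 7 did not pass. Cyp2b9, a cytochrome P450 gene, was higher by 3.91 ± 0.77 (log2) at an edgeR adjusted p of 0.0318, a call lost when any 1 library but DSSHA 71 was left out, with limma-voom (0.440) and without the filter (0.226). Cyp2a4, a steroid hydroxylase gene, averaged 0.103 ± 0.153 CPM in DSSHA livers and 4.71 ± 2.86 CPM in DSS livers (edgeR adjusted p = 0.0103), a call lost without DSSHA 45 (0.0514) or DSS 50 (0.0607) and with limma-voom (0.145). Cyp2a4 had 0, 1, 3 and 1 counts in DSSHA libraries 35, 45, 65 and 71, against 81, 57, 12 and 56 in DSS libraries 15, 48, 49 and 50. It thus passed the filter on low counts only through the DSS libraries. How reads shared with related genes were counted is not stated for it either. With the mitochondrial covariate neither Cyp2b9 nor Cyp2a4 passed (edgeR adjusted p = 0.124 and 0.0619). Atp6v0d2, a proton pump subunit gene, stood at 2.08 ± 0.86 (edgeR adjusted p = 0.363).

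Over the 8 libraries, the tested named coding genes with the log2 CPM pattern most like that of Slco1a1 were Ces3a, Selenbp2, Ces3b, Ptprd and Igsf11, at Pearson correlations of 0.991, 0.980, 0.978, 0.975 and 0.967 among 10669 genes ranked. Part of this likeness is the difference between groups, and the libraries share their depth and mitochondrial share, so the values are descriptions. The carboxylesterase gene Ces3a had 144, 218, 405 and 192 CPM in DSSHA libraries 35, 45, 65 and 71, against 785, 1500, 1590 and 1120 CPM in DSS libraries 15, 48, 49 and 50. As for Slco1a1, DSSHA 65 was the highest DSSHA library and DSS 15 the lowest DSS library. Within a group of 4 libraries the correlations with Slco1a1 were more uneven. For Ces3a, Selenbp2, Ces3b, Ptprd and Igsf11 they were 0.968, 0.939, 0.682, 0.973 and 0.968 within the DSSHA libraries, and 0.862, 0.640, 0.982, 0.891 and 0.543 within the DSS libraries.

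Markers of position and of other liver cells were set beside these results; none of these cell type markers was at 0 counts in all libraries. Of 12 periportal hepatocyte genes 1 fell, Cyp2f2, which is also male-biased (median -0.58; 5 called by DESeq2, 2 without DSSHA 35 or 71, none with the mitochondrial covariate), and of 12 pericentral genes edgeR called 0 (4 at an unadjusted p under 0.05; DESeq2 1, limma-voom 0; median -0.04). Cholangiocyte markers, of which 7 of 12 were tested, summed to 44.2 to 97.4 CPM in DSSHA livers and 41.0 to 50.9 CPM in DSS livers, and edgeR called 0 (1 at an unadjusted p under 0.05; DESeq2 0, limma-voom 0). Sinusoidal endothelial markers summed to 106 to 237 CPM in DSSHA livers and 144 to 260.2 CPM in DSS livers, with 0 of 10 called by edgeR (3 at an unadjusted p under 0.05; DESeq2 1, limma-voom 0). Stellate cell markers summed to 110.3 to 366 CPM in DSSHA livers and 126 to 333 CPM in DSS livers, with 0 of 10 called by edgeR, 0 at an unadjusted p under 0.05, and 0 by DESeq2 and by limma-voom. Lymphocyte markers summed to 1.31 to 9.28 CPM in DSSHA livers and 4.47 to 7.01 CPM in DSS livers, and none could be tested. Neutrophil markers summed to 35.6 to 82.0 CPM in DSSHA livers and 4.19 to 16.2 CPM in DSS livers; of 12 listed 5 could be tested and 4 rose (S100a8, S100a9, Retnlg and Prtn3), or 1 with DSS 48, 49 or 50 left out, 2 without DSSHA 45 or 65, and 1 with limma-voom or the mitochondrial covariate. Kupffer cell markers summed to 400.0 to 715 CPM in DSSHA livers and 244 to 383 CPM in DSS livers, with 1 of 11 higher (Marco, a scavenger receptor gene), or none without DSSHA 35, DSS 48 or DSS 49, without the filter and with the covariate. The gap between these ranges rests on Marco, at 54.9 to 403 CPM in DSSHA livers and 6.11 to 12.5 CPM in DSS livers. The other Kupffer cell markers together overlapped between groups, although 10 of the 11 log2 fold changes were above 0 (median 0.48). Acute-phase genes, which hepatocytes make under inflammatory cytokines, summed to 62420 to 101000 CPM in DSSHA livers and 15730 to 19700 CPM in DSS livers. In this list 12 of 21 rose, Orm2, Orm3, Apcs and Orm1 with the smallest p (log2 fold changes 5.81, 5.35, 3.93 and 3.43). The part of these shifts in the transporter values was not tested.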

How the data were processed

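RNA-seq libraries of mouse liver were analysed, 4 DSSHA and 4 DSS. The deposited table holds the raw counts of the authors for each gene in each library, FPKM values by the authors (checked to be counts over gene length times 1 factor per library), and the authors' log2 fold change, p-value and adjusted p-value; per the submitters' processing notes the builds were GRCm38 and mm10, and for aligner, counting tool and strand setting the sources used here give no name. The authors' mean normalized signal per group was not used.

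Counts were filtered with filterByExpr (minimum count 10), TMM-normalized, and tested in R 4.3.3 by edgeR 4.0.16 (robust quasi-likelihood F test, Benjamini-Hochberg over all 11729 genes, threshold 0.05). Log2 CPM used a prior count of 2. Depths cover counting error only. In simulated data 7.81, 62.9 and 81.2% of genes changed 2-, 4- and 8-fold were recovered, with 6 false calls among 102 (11451 genes tested). The alternatives tried were normalization by RLE or upper quartile, a DESeq2 1.42.0 test, limma-voom (limma 3.58.1) with and without sample weights, 2 other filters, a non-robust fit, a threshold of 0.01, leaving out mitochondrially encoded genes, the mitochondrial share as covariate, and leaving out each library.

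The transporter genes, the 17 other gene lists and the tests were chosen with earlier results of these data known. The text names all 10 members, the tested genes with the smallest p in each list, at most 4 (cell type lists by sums and counts), and the 5 genes most like Slco1a1; 1 result is not reported here. Cyp7a1, Nr1h4, Slco1a5, Slco1a6, Slc51a, Slc51b, Cyp2f2, Marco, S100a8, S100a9, Retnlg, Prtn3 and the chromosome 6 neighbours were named after their values were seen. Genes that overlap the 10 transporter genes on either strand had at most 10 counts in any library.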

Additional observations from a re-analysis of the deposited data

Results flagged for a closer look

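In 4 of 20 groups of 4 libraries, 1 library lay further from the other 3 than Dixon's 95% limit allows; chance flags about 1 in 20 such groups. DSSHA 65 had 9.17 CPM of Slco1a1, against 2.46 to 3.09 CPM in the other DSSHA libraries. DSSHA 35 had 182.5 CPM of Slco1b2, against 133 to 138 CPM, and 13.04 CPM of Slco2b1, against 28.7 to 31.1 CPM, in the other DSSHA libraries. DSS 49 had 63.4 CPM of Abcb4, against 94.9 to 99.4 CPM in the other DSS libraries.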

How the results depend on the processing

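Slco1a1 fell in the main analysis and under all 19 alternatives (log2 fold change -4.12 to -3.15, highest edgeR adjusted p = 0.0296). The number of transporter genes called was 2, with Abcb4 added, under DESeq2 and under limma-voom with sample weights, and 1 under the other 17. Slco1b2, not called under any, had a positive value of 0.03 with limma-voom, 0.05 with the mitochondrial covariate and 0.07 without DSS 48 (-0.32 to 0.07 over the fits leaving out 1 library). Against 148 genes called in all, DESeq2 called 431, limma-voom with sample weights 682, no filter 320, a threshold of 0.01 61 and the mitochondrial covariate 55. Leaving out 1 library gave 58 to 308: 58 without DSS 48, 74 without DSS 49, 77 without DSS 50, 83 without DSSHA 45 and 308 without DSSHA 35. Against 29 genes called in the context lists, there were 49 with DESeq2, 58 with weighted limma-voom and 19 with the mitochondrial covariate (20 to 37 over the fits leaving out 1 library). The cause was not tested. Of 44 genes outside the 10 that were picked by the naming rule or named besides it, 42 kept their sign in all fits run; Cyp7a1 and Gm30784, neither called in any, gave 0.07 without DSS 49 (-2.08 to 0.07 over the fits leaving out 1 library) and -0.33 with the mitochondrial covariate. For 10 of these genes a call was lost in some fit (54 fits in all), and for 6 one was gained (23 fits). No paired analysis was possible because no library number occurs in both groups. Depth limits Abcc4, with 3 to 39 counts per library.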
